A study of Mus musculus with 8 samples.

Results

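The 34 genes described here encode the ligands of the Wnt pathway and the receptors that bind them at the cell surface. They were taken by gene name, with no cut on a measured value, but with earlier results of these data known. They comprise 19 Wnt ligands, 10 Frizzled receptors and the 5 co-receptors Lrp5, Lrp6, Ror1, Ror2 and Ryk. All 34 had a row among the 43432 genes of the deposited count table. Lung cells labelled as myofibroblasts were profiled by RNA sequencing in 8 libraries from C57BL/6 mice at postnatal day 7. The 4 control libraries (control 1 to control 4) carry a wild-type genotype label, and the other 4 (Fra-2 1 to Fra-2 4) are labelled as carrying a transgene that expresses Fra-2 constitutively. The source label of these 4 also holds the word control, so the grouping rests on their titles and genotype labels. The labels name no promoter for the transgene, do not say how the cells were isolated, and do not say whether each library came from its own animal, so the p-values here measure the spread between these libraries, which may be partly technical.

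Wnt proteins are secreted, lipid-modified signals. When a Wnt binds a Frizzled receptor together with Lrp5 or Lrp6, beta-catenin is spared from degradation and acts with TCF and LEF factors on target genes. Wnt5a and related ligands can also signal without beta-catenin, through Frizzled with Ror1, Ror2 or Ryk, to control cell movement and polarity. In the lung, mesenchymal cells make Wnt2, Wnt2b and Wnt5a, while Wnt7b is a ligand of the developing epithelium.

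Fosl2, the gene that encodes Fra-2, was measured first because the labels name it as the transgene. Its level was 105, 117, 141 and 119 CPM (counts scaled to a common library size, as edgeR gives them with TMM factors) in control 1 to 4 and 166, 134, 126 and 104 CPM in Fra-2 1 to 4. The groups overlapped, and a two-sided exact permutation test gave p = 0.457, where 0.0286 is the smallest that 4 against 4 libraries allows. A transgene whose sequence differs from the mouse gene may not be counted under it. The second group is therefore called the labelled transgenic libraries throughout. Total counts ran from 29926239 to 41335957 per library. Reads on Xist and on Y-linked genes marked 2 libraries of either group as female and 2 as male. Markers of the labelled cell type were abundant in every library. Acta2, smooth muscle actin, had means of 3285 CPM in controls and 3411 CPM in the other group, and Pdgfra, a growth factor receptor of these cells, 1139 and 1243 CPM. Of the 9 markers of this list 2 were higher in the labelled transgenic libraries and 7 did not pass. Those higher were Actc1, cardiac actin (1.78-fold, edgeR adjusted p = 0.0215), and Stc1, the hormone stanniocalcin (1.47-fold, edgeR adjusted p = 0.0302). Over all genes tested 1.02% passed in either direction. RNA of epithelial, endothelial and immune cells was present at low levels. The 11 epithelial markers, led by Sftpc, together gave 58.1 to 138 CPM in the controls and 117 to 223 CPM in the labelled transgenic libraries. For the 8 endothelial markers, led by Cdh5, the sums were 54.7 to 80.7 and 74.5 to 92.6 CPM. For the 8 immune markers, led by Lyz2, they were 77.0 to 111 and 89.0 to 119 CPM. Sums were larger for markers of other mesenchymal cells. The 7 pericyte and vascular smooth muscle markers, led by Rgs5, gave 1897 to 2296 CPM in controls and 1684 to 2003 CPM in labelled transgenic libraries. In edgeR 5 of these 7 had a positive log2 fold change, 2 a negative one, and 0 passed, so the sum does not describe most of the list. The 8 adventitial fibroblast markers, led by Col14a1, gave 1205 to 1478 and 1382 to 1653 CPM.

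A smaller part of the Wnt ligands than of their receptors was expressed in these libraries, as defined next. The filter on low counts kept 22 of the 34 genes, beside 15422 of the 43432 genes in the table. Over the 8 libraries 20 of the 34 genes had a mean of at least 1 CPM and are called expressed: 7 ligands, 8 Frizzled genes and all 5 co-receptors. Another 5 (Wnt6, Wnt7a, Wnt8b, Wnt10b and Fzd10) lay from 0.1 to under 1 CPM. The remaining 9, Wnt1, Wnt3, Wnt3a, Wnt7b, Wnt8a, Wnt9b, Wnt10a, Wnt16 and Fzd9, lay under 0.1 CPM and are called near absent. The expressed gene nearest to the limit was Wnt5b, at 1.65 ± 1.01 CPM in controls (mean ± SD, n = 4 per group here and below) and 1.61 ± 0.354 CPM in labelled transgenic libraries. The nearest gene outside it was Wnt6, at 0.723 ± 0.408 and 0.682 ± 0.189 CPM. A minimum of 0.5 CPM would count 22 genes as expressed, and one of 2 CPM would count 19.

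**Figure D1:**
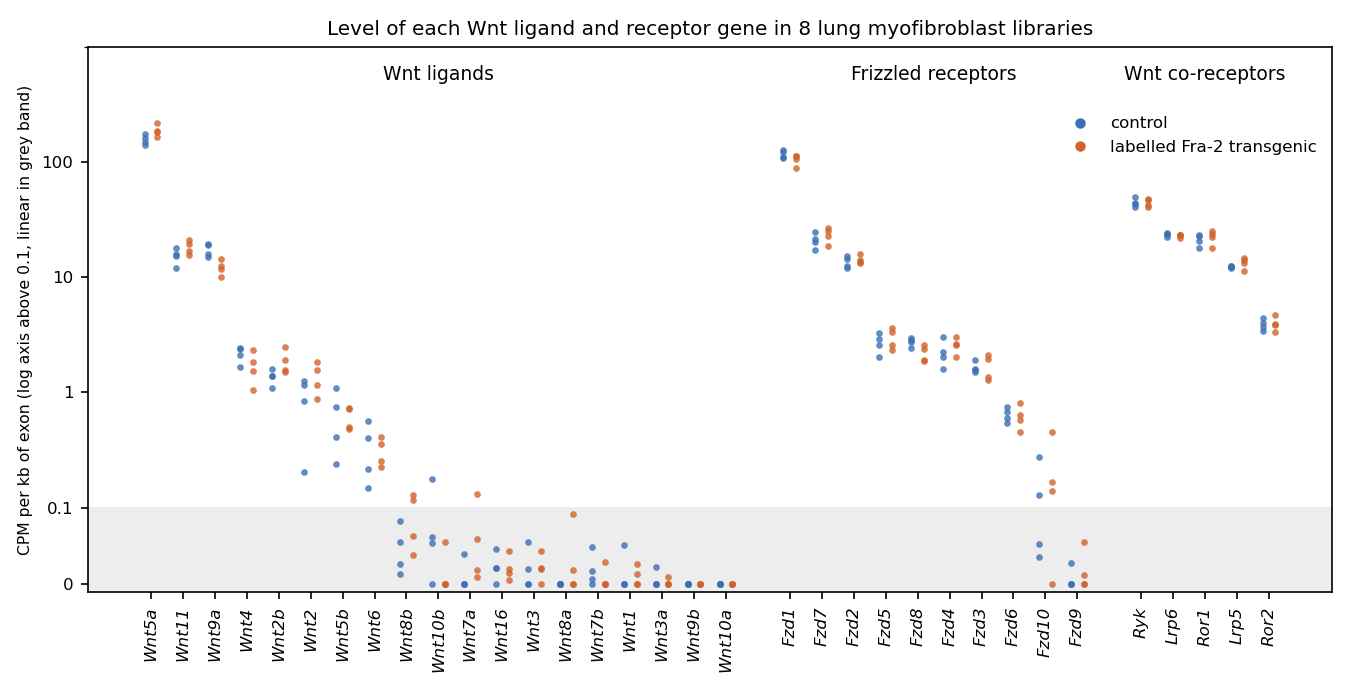
Level of each of the 34 genes in CPM per kilobase of exon, with 1 point for each of the 8 libraries. The axis is logarithmic above 0.1 and linear in the grey band below it. Wnt5a and Fzd1 stand above every other ligand and Frizzled gene in all 8 libraries, and the ligands to the right of Wnt6 lie at or near 0.

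Levels of different genes are compared per kilobase of annotated exon, since longer transcripts collect more reads. On that scale Wnt5a, the main ligand of beta-catenin-independent signalling, stood first among ligands, at 173 CPM per kb (140.5 to 217 over the 8 libraries). Wnt11, another ligand of that type, followed at 16.8 CPM per kb (12.1 to 20.97) and Wnt9a at 14.8 (10.1 to 19.3), and these ranges overlapped. Their order by mean turned between groups: Wnt9a was at 17.4 and Wnt11 at 15.3 CPM per kb in controls, and at 12.2 and 18.3 in labelled transgenic libraries. The next 4, Wnt4 at 1.92, Wnt2b at 1.62, Wnt2 at 1.11 and Wnt5b at 0.613 CPM per kb, overlapped each with the next, and Wnt4 and Wnt2b also changed places between groups. Wnt5a supplied 79.3 to 85.3% of the summed ligand level of a library. By reads it ranked 84th of all genes in the table.

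Wnt5a (ENSMUSG00000021994, chromosome 14, 28504750 to 28527448 in GRCm38) measured 1373, 1164, 1099 and 1273 CPM in control 1 to 4 and 1428, 1304, 1459 and 1697 CPM in Fra-2 1 to 4. 3 of the 4 labelled transgenic libraries lay above every control, and Fra-2 2 lay below control 1. The means were 1227 ± 121 and 1472 ± 164 CPM, a 1.20-fold difference with a 95% interval of 1.02 to 1.41 (edgeR adjusted p = 0.476). It did not pass at the threshold of 0.05 for the adjusted p. Over all alternatives its adjusted p ran from 0.274 to 0.784, and the direction was the same in each. An antisense gene, Gm2670, shares 358 bases of exon with Wnt5a and held 0.506% as many reads. The library kit is not said to keep the strand, so reads in the shared stretch cannot be assigned to either gene.

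Wnt9a (ENSMUSG00000000126, chromosome 11, 59306928 to 59333552) was the only tested gene of the 34 whose groups did not overlap. That is 1 of 22 (4.55%), beside 5.76% of all genes tested, and so no more than the background share. The level of Wnt9a was 64.0, 64.4, 52.9 and 49.9 CPM in control 1 to 4 and 33.8, 41.3, 38.9 and 48.3 CPM in Fra-2 1 to 4. Every labelled transgenic library lay below every control, by a narrow margin between control 4 and Fra-2 4. The means were 57.8 ± 7.47 and 40.6 ± 6.03 CPM, a log2 fold change of -0.51 (SE 0.133, fold 0.702, 95% interval 0.576 to 0.855). The adjusted p of edgeR over all 15422 genes tested was 0.109, so the gene did not pass. It passed in DESeq2 (adjusted p = 0.023) and in edgeR without the filter on low counts (adjusted p = 0.0484), and over all alternatives the adjusted p ran from 0.023 to 0.355. In bulk RNA, fewer cells that express a gene and less of its RNA per cell cannot be told apart.

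The balance between ligands was examined after these values were seen and is a description without a test. Per kilobase, the level of Wnt5a was 9.12, 7.70, 8.84 and 10.9 times that of Wnt9a in control 1 to 4 and 18.0, 13.4, 15.9 and 14.95 times in Fra-2 1 to 4. The ratio was higher in every labelled transgenic library than in any control. Since the groups of Wnt9a were already seen not to overlap, this separation largely restates those values. So do the shares that follow, which have a common denominator. Wnt9a made up 8.93 ± 1.18% of the summed ligand level in controls and 5.42 ± 0.579% in labelled transgenic libraries, and Wnt5a 80.4 ± 1.14% and 83.7 ± 1.46%. The ratio of Wnt5a to Wnt11 did not separate the groups (10.4 ± 1.70 and 10.3 ± 0.917).

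**Figure D2:**
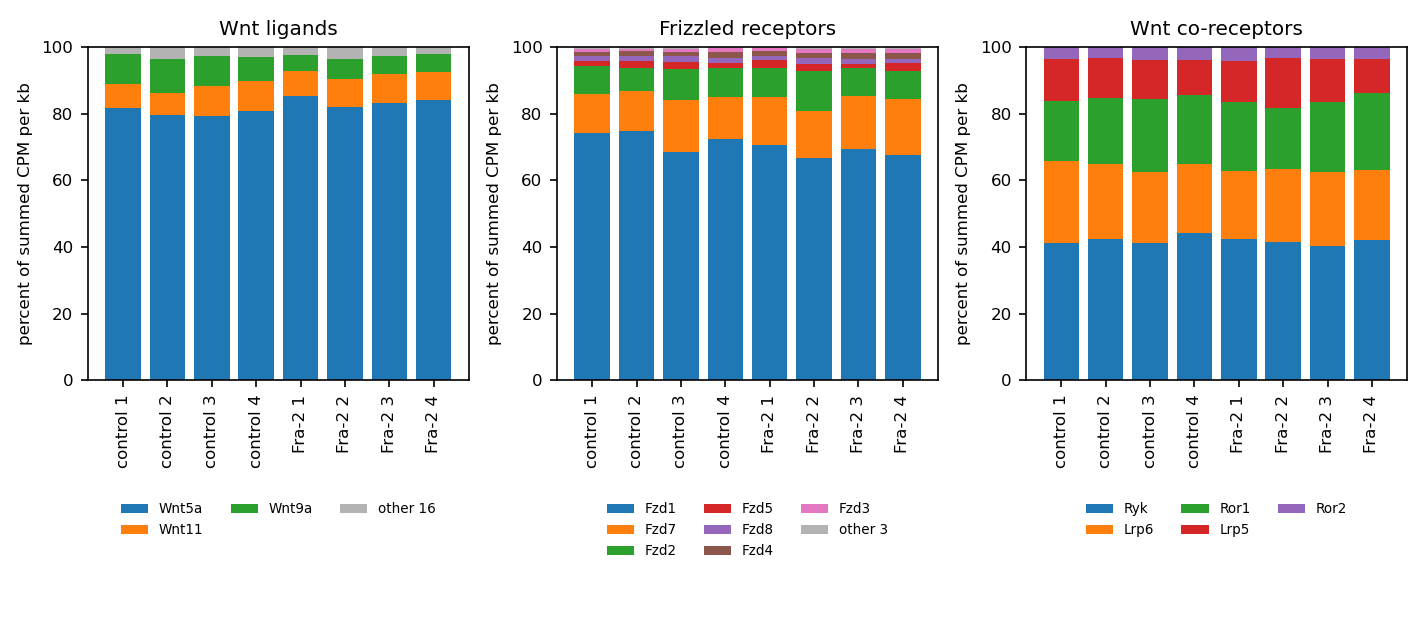
Share of each gene in the summed CPM per kilobase of its class, in percent, for each of the 8 libraries. Wnt5a fills 79.3 to 85.3% of the ligand bars and Fzd1 66.8 to 74.9% of the Frizzled bars, and the green Wnt9a segment is thinner in the 4 labelled transgenic libraries.

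Wnt11 (ENSMUSG00000015957, chromosome 7, 98835112 to 98855195) measured 63.2, 50.2, 65.4 and 74.1 CPM in control 1 to 4 and 65.2, 70.7, 80.9 and 86.7 CPM in Fra-2 1 to 4. The groups overlapped, and the 1.20-fold difference had an interval of 0.989 to 1.46 (edgeR adjusted p = 0.623). Wnt4, a ligand with roles in kidney and reproductive tract development, measured 10.1, 9.98, 7.01 and 8.87 CPM in controls and 6.49, 9.78, 7.66 and 4.43 CPM in labelled transgenic libraries (fold 0.787, interval 0.56 to 1.11). Fra-2 4 and Fra-2 1 were its lowest libraries.

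Wnt2b, which acts with Wnt2 in setting up the lung field of the embryo, measured 5.81, 5.87, 6.70 and 4.63 CPM in control 1 to 4 and 7.99, 10.4, 6.27 and 6.57 CPM in Fra-2 1 to 4. Fra-2 1 and Fra-2 2 lay above every control, and the other labelled transgenic libraries lay below control 3 (fold 1.36, interval 0.995 to 1.85, edgeR adjusted p = 0.592). Wnt2, a ligand that alveolar fibroblasts of the lipid and matrix type express, measured 0.459, 1.91, 2.62 and 2.83 CPM in controls and 1.96, 2.61, 4.13 and 3.55 CPM in labelled transgenic libraries. It was the most variable of the expressed genes, 8.99 times higher in the highest library than in the lowest, and its fold of 1.57 had an interval of 0.808 to 3.07 (edgeR adjusted p = 0.793). The summed level of 8 markers of that fibroblast type, a list that does not hold Wnt2, was 203, 292, 385 and 384 CPM in control 1 to 4 and 514, 420.1, 642 and 574 CPM in Fra-2 1 to 4. The groups did not overlap in that sum, and control 1 was lowest and Fra-2 3 highest in both Wnt2 and the sum. The separation belonged to 3 of its 8 genes, Npnt, Limch1 and Itga8, which are also its most abundant. The other 5, Tcf21 among them, overlapped between groups. Over all genes tested the groups did not overlap in 5.76%. In edgeR 0 of the 8 passed. Control 1 was also lowest in the summed epithelial, endothelial, immune, mesothelial and adventitial fibroblast markers. It was not lowest in those of pericyte, neural or myofibroblast markers. Its low place is thus not particular to the fibroblast list set beside Wnt2. The part of any of these cell types in the levels of Wnt2 and of the other genes here was not tested. Wnt5b, a close relative of Wnt5a, measured 1.08, 2.91, 0.632 and 1.99 CPM in controls and 1.93, 1.27, 1.89 and 1.33 CPM in labelled transgenic libraries. At 20 to 102 reads per library, its fold of 0.972 had a wide interval, 0.504 to 1.87.

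**Figure D3:**
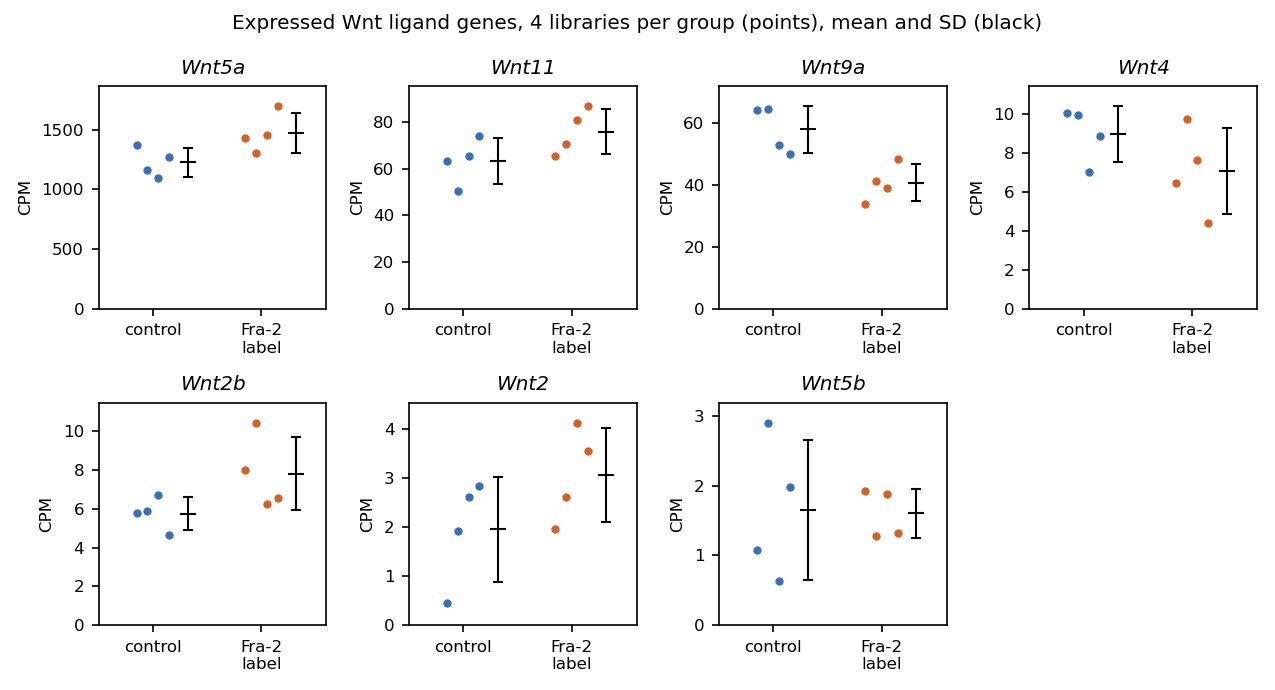
CPM of the 7 expressed ligand genes in each library (points) with the group mean and SD (black), on axes that start at 0. The 4 control points of Wnt9a, from 49.9 to 64.4 CPM, lie above the 4 labelled transgenic points, from 33.8 to 48.3 CPM, and the groups overlap in the other panels.

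The near-absent ligands were at the limit of counting. Wnt9b and Wnt10a had 0 reads in all 8 libraries, which allows up to 3 reads per library, or 0.0688 to 0.0955 CPM depending on its depth. Wnt3a, the ligand most used to activate beta-catenin in culture, had 3 reads in all, Wnt8a had 6, Wnt1 had 7, Wnt3 and Wnt7b each had 17, and Wnt16 had 26. No single library held more than 8 reads on a near-absent gene. At this depth no difference between groups was detectable for them. Among the low ligands, Wnt10b had reads in 3 controls (8, 21 and 7) and in Fra-2 4 (7), and none in the other 4 libraries. Wnt7a reached 13 reads in Fra-2 2 and had 0 in 3 controls. Wnt8b held 2 to 14 reads, and Wnt6, the only low ligand to be tested, 14 to 43 reads in each library.

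Several ligand genes lie side by side in the genome, and in each pair at least 1 gene was near absent. Wnt9a and Wnt3a lie 16.2 kb apart on chromosome 11 and are transcribed away from each other, at a mean of 49.2 and 0.0112 CPM. Wnt6 and Wnt10a lie 6.19 kb apart on chromosome 1, at 0.702 and 0 CPM. Wnt1 and Wnt10b, 11.7 kb apart on chromosome 15, had 0.0269 and 0.147 CPM. Wnt3 and Wnt9b, 24.3 kb apart on chromosome 11, had 0.0617 and 0 CPM. Among these 8 neighbours only Wnt9a was expressed.

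Because Fra-2 belongs to AP-1, a factor that binds TGANTCA, and beta-catenin acts through TCF, which binds ATCAAAG, these letters were searched on both strands in the promoter windows that RefSeq gives for GRCm38.p6, from 250 bases before each start to 50 after it. Windows were found for 24 of the 34 genes, 27 windows in all, and 10 genes, Wnt5a among them, had none. The AP-1 letters stood in 2 of the 27 windows, of Ror2 and an upstream start of Wnt5b, against 7.81% of all 32851 windows. The TCF letters stood in 2 of the 27, of Wnt11 and Wnt5b, against 3.73% of all windows. The 250 bases before the start are shown for Wnt9a, the gene whose groups did not overlap, for Wnt11, the more abundant of the 2 ligands with TCF letters, and for Ror2, the receptor with AP-1 letters. Capitals mark the matches, and the Wnt9a window holds neither motif. A match describes the letters and is no evidence of binding.
Wnt9a, chr11:59306680-59306929, plus strand: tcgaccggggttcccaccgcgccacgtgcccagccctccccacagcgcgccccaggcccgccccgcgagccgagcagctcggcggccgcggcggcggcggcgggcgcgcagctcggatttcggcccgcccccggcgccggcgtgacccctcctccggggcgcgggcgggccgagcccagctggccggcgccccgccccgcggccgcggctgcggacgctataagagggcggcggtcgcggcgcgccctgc
Wnt11, chr7:98834862-98835111, plus strand: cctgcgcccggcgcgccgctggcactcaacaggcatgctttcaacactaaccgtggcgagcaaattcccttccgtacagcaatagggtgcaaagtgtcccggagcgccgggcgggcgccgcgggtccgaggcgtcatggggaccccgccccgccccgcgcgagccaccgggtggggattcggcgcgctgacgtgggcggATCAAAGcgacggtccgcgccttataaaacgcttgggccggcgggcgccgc
Ror2, chr13:53286125-53286374, minus strand: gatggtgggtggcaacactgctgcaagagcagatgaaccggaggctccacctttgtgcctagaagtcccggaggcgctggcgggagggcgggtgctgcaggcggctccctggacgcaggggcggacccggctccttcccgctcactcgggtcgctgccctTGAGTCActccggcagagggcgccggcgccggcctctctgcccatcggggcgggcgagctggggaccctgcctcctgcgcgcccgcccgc

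The Frizzled genes, which encode the 7-pass receptors with the Wnt-binding domain, were led by Fzd1. Fzd1 (ENSMUSG00000044674, chromosome 5, 4753839 to 4758035) stood at 111 CPM per kb (88.9 to 128), Fzd7 at 22.2 (17.4 to 26.7) and Fzd2 at 13.9 (12.0 to 16.0), and these ranges did not overlap. The 3 genes form a subfamily of closely related receptors. How reads that match more than 1 of them were counted is not known, so their counts are less certain if such reads are many, which was not tested. Fzd5 at 2.84, Fzd8 at 2.46, Fzd4 at 2.41 and Fzd3 at 1.65 CPM per kb overlapped each with the next, and Fzd6 stood lowest of the expressed ones at 0.632. Fzd1 alone supplied 66.8 to 74.9% of the summed Frizzled level of a library.

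Fzd1 measured 464, 538, 459 and 515 CPM in control 1 to 4 and 473, 373, 470.1 and 447 CPM in Fra-2 1 to 4. Fra-2 2 was lowest and the groups overlapped (fold 0.892, interval 0.764 to 1.04, edgeR adjusted p = 0.756). Fzd7 measured 78.8, 91.3, 113 and 98.1 CPM in controls and 104, 84.5, 115 and 121 CPM in labelled transgenic libraries (fold 1.12, interval 0.916 to 1.36). Fzd2 measured 45.8, 44.0, 55.8 and 53.2 CPM against 51.3, 58.5, 49.5 and 48.8 CPM (fold 1.05, interval 0.882 to 1.24). All 3 intervals held 1, and none reached below 0.764 or above 1.36.

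Fzd8, a receptor most similar to Fzd5, measured 14.5, 17.2, 17.6 and 16.4 CPM in control 1 to 4 and 11.1, 15.3, 14.2 and 11.4 CPM in Fra-2 1 to 4. Only Fra-2 2 exceeded a control, the lowest one (fold 0.793, interval 0.634 to 0.991, edgeR adjusted p = 0.544). Fzd5 measured 14.1, 22.5, 20.2 and 17.8 CPM against 25.1, 17.9, 16.3 and 23.3 CPM. A gene model on the other strand, Gm38058, covers 17.8% of the exon bases of Fzd5 but held 20 reads against 5466. Fzd4, also the receptor for the vascular ligand norrin, measured 10.8, 15.2, 13.7 and 20.5 CPM against 17.8, 13.6, 17.4 and 20.2 CPM. Control 1 was its lowest library and control 4 its highest.

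Fzd3 and Fzd6, which act in planar cell polarity, did not differ beyond their spread either. Fzd3 measured 20.6, 19.1, 20.0 and 24.2 CPM in control 1 to 4 and 16.3, 17.3, 24.8 and 27.0 CPM in Fra-2 1 to 4, and the labelled transgenic libraries took both the lowest and the highest places. Fzd6 measured 3.28, 3.62, 2.87 and 2.62 CPM against 2.19, 3.92, 2.77 and 3.07 CPM. Fzd10 reached 1.48 CPM in Fra-2 3 and 0.884 CPM in control 3 and had 0 reads in Fra-2 1. Fzd9 had 7 reads in all.

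Lrp6, Lrp5 and Ryk had the smallest spread between libraries of the 20 expressed genes. Ryk, an atypical receptor with a Wnt-binding domain, stood at 44.5 CPM per kb (40.9 to 50.1), above Lrp6 at 23.2 (21.9 to 24.4) and Ror1 at 21.8 (17.9 to 25.5), whose ranges overlapped. Lrp5 at 12.8 (11.2 to 14.7) and Ror2 at 3.92 (3.32 to 4.68) followed without overlap. Scaled by the longest annotated transcript instead of all exons, Ryk stood at 65.7 and Lrp6 at 33.8 (32.01 to 35.7), and Lrp6 then no longer overlapped Ror1, which stayed at 21.8. Lrp6 exceeded Lrp5 by 1.49 to 2.06 times and Ror1 exceeded Ror2 by 4.86 to 6.57 times in each library, per kilobase of exon.

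Ryk measured 186, 199.7, 195 and 227 CPM in control 1 to 4 and 218, 186, 193 and 211 CPM in Fra-2 1 to 4. Its means of 202 ± 17.9 and 202 ± 15.2 CPM gave an interval of 0.863 to 1.16 for the fold. Lrp6, the main co-receptor for beta-catenin signalling, measured 334, 323, 304 and 322 CPM against 316, 299.9, 319 and 316 CPM. It had a mean within-group coefficient of variation of 3.32%, beside 6.77% for Lrp5 and 8.20% for Ryk, and an interval of 0.858 to 1.11. Lrp5, its paralogue, measured 122, 122, 119 and 116 CPM against 137, 143, 131 and 109 CPM. 3 of the labelled transgenic libraries lay above every control and Fra-2 4 below all of them (fold 1.08, interval 0.934 to 1.26, edgeR adjusted p = 0.86).

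Ror1 and Ror2, the tyrosine kinase-like receptors of Wnt5a, likewise overlapped between groups. Ror1 measured 103, 118, 132 and 135 CPM in control 1 to 4 and 136, 104, 128 and 147 CPM in Fra-2 1 to 4 (fold 1.06, interval 0.881 to 1.26). Ror2 measured 15.6, 14.5, 17.1 and 18.9 CPM against 19.9, 14.1, 16.6 and 16.4 CPM (fold 1.01, interval 0.814 to 1.26). The relation of its AP-1 letters, shown above, to its level was not tested.

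**Figure D4:**
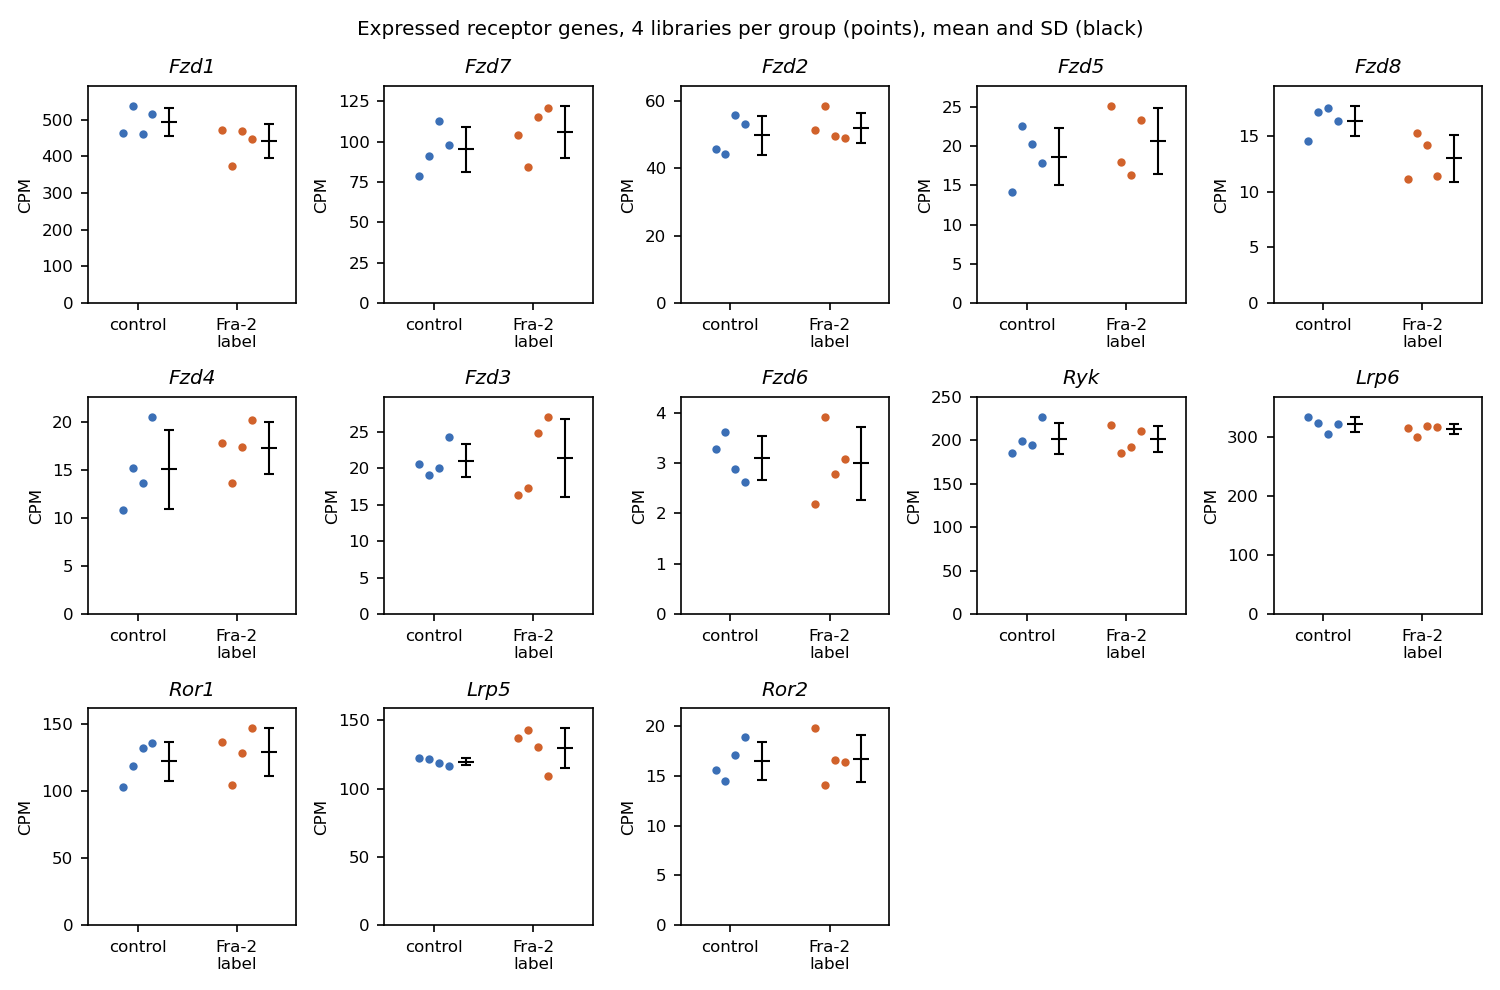
CPM of the 13 expressed receptor and co-receptor genes in each library (points) with the group mean and SD (black), on axes that start at 0. The groups overlap in every panel. Lrp6 is tightest, from 299.9 to 334 CPM.

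Of the 34 genes 22 passed the filter on low counts and were tested (8 ligands, 9 Frizzled genes and 5 co-receptors), and in edgeR 0 were higher and 0 were lower at an adjusted p under 0.05. Over all 15422 genes tested 1.02% passed in either direction. At an unadjusted edgeR p under 0.05, 3 of the 22 passed (Wnt9a, Wnt5a and Fzd8, 13.6%), beside 8.71% of all genes. The groups did not overlap in 1 of the 22 (4.55%), beside 5.76% of all genes. DESeq2 called 1 of them lower, Wnt9a, beside 268 genes higher and 94 lower among the 14520 it tested. Limma-voom called 0 of the 22. The median log2 fold change of the 22 was 0.05, and that of all genes -0.01. Their median size regardless of sign was 0.15, and that of all genes 0.16. These shares of the 22 genes rest on 3 and 1 genes and are not read as a departure from the background.

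**Figure D5:**
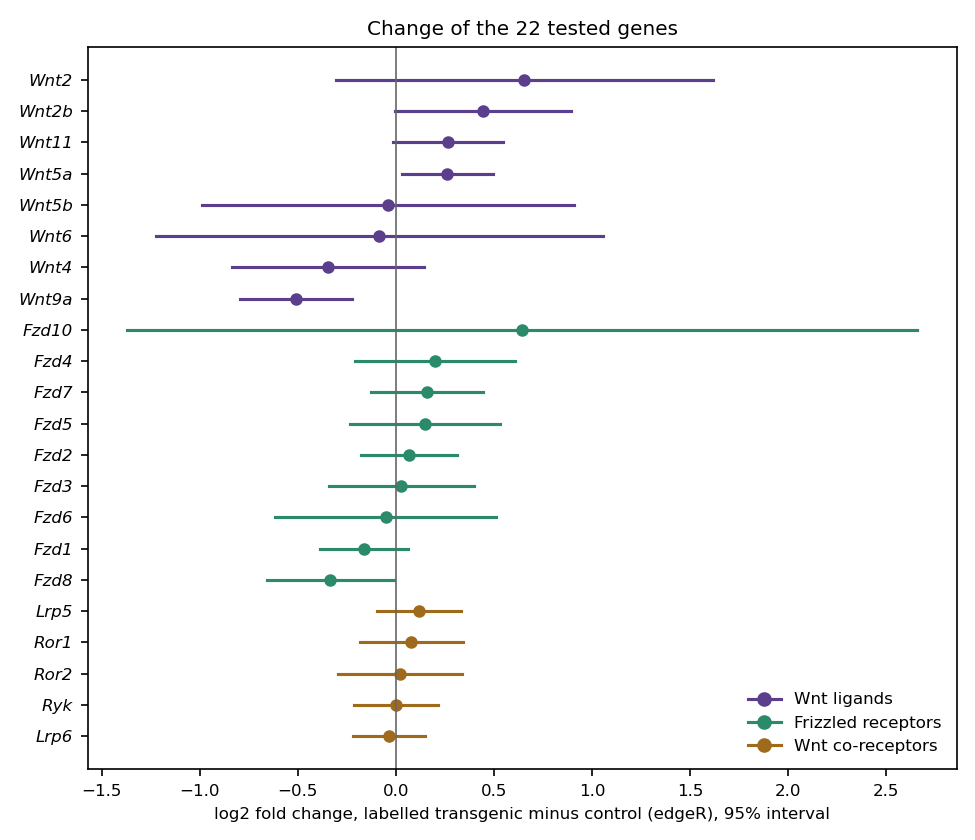
Log2 fold change (labelled transgenic minus control, edgeR) of the 22 tested genes with 95% intervals, coloured by class. The intervals of Wnt9a and Fzd8 lie below 0 and that of Wnt5a above it, before adjustment over all genes. Fzd10, with few reads, has the widest interval.

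The rest of the pathway was read from gene lists to place these ligands and receptors. Of the 3 Wnt secretion and inactivation genes, 0 passed, and Wls, the carrier that brings Wnts to the surface, measured 54.2 ± 5.97 and 58.5 ± 3.16 CPM. Of 20 intracellular genes of the beta-catenin branch, 0 passed, and the median log2 fold change was 0.02. Gsk3b, the kinase that marks beta-catenin for degradation, measured 910.0 ± 162 and 905 ± 78.9 CPM. Of 14 common beta-catenin targets, 1 was higher, 0 were lower and 13 did not pass. Axin2, the target most often used as a readout, measured 104 ± 15.3 and 106 ± 28.0 CPM. The target that passed was Lgr5, a receptor for R-spondins, from 6.31 ± 1.38 to 12.3 ± 1.44 CPM (edgeR adjusted p = 0.0222). Of 15 tested polarity genes and other Wnt-binding receptors, 0 passed. The proteoglycan gene Gpc4 was their most abundant, at 435 ± 34.03 and 393 ± 58.3 CPM.

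Of the 17 tested secreted modulators and R-spondin receptors, 3 were higher, 0 were lower and 14 did not pass. Beside Lgr5 these were Sfrp1 and Sfrp2, soluble Frizzled-like proteins that bind Wnts. Their place beside the ligands is seen per kilobase, by group. In controls the mean of Sfrp1 was 12.2 CPM per kb, below Wnt9a at 17.4, and in labelled transgenic libraries it was 39.1, above Wnt9a at 12.2. Wnt5a, at 157 and 188 CPM per kb, stood above it in both groups. Sfrp1 measured 35.9, 55.5, 55.8 and 65.5 CPM in control 1 to 4 and 198, 130.4, 167 and 188 CPM in Fra-2 1 to 4, a 3.21-fold difference (edgeR adjusted p = 0.000346). Every labelled transgenic library was above every control. Sfrp2 went from 8.88 ± 1.39 to 17.6 ± 4.05 CPM (edgeR adjusted p = 0.016). These lists were written with earlier results of these data known, and their counts are descriptions. They stand beside the 1.02% of all genes tested that passed in either direction.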

How the data were processed

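RNA from 8 libraries of mouse lung myofibroblasts was measured by RNA sequencing. Per the labels' protocols, 50 ng of total RNA gave the mRNA that was amplified as cDNA and made into libraries with a transposase kit. The deposited values are whole-number read counts per Ensembl mouse gene ID. No aligner or counter is named (not given in the sources used here), and the build named in the submitters' processing notes is GRCh38, a human build, although the IDs are mouse. Symbols, exon lengths and coordinates were taken from the GENCODE annotation of GRCm38, and 42548 of 43432 IDs had a symbol. IDs with no symbol held 0.0842% of counts.

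Genes were kept by filterByExpr (minimum count 10, minimum total 15) and scaled by TMM. Labelled transgenic and control libraries were compared with the robust quasi-likelihood test of edgeR 4.0.16 (R 4.3.3), two-sided, with Benjamini-Hochberg adjustment over all 15422 genes tested and a threshold of 0.05. Alternatives were other scalings and filters, DESeq2 1.42.0, limma-voom (limma 3.58.1), non-robust dispersion, a replicate block, a sex term, each library left out, an adjusted p threshold of 0.10, other minimum levels and transcript lengths. Each library counted as 1 replicate, as its label numbers it. No pair of libraries within a group matched within sampling noise, which speaks only to a library deposited more than once, not to separate animals. All 34 genes are accounted for, and those with a mean of at least 1 CPM are given by library. In each pathway list the genes past the threshold are named, or the most abundant gene if none passed. The genes and lists were chosen with earlier results of these data known. cDNA was amplified without molecular identifiers, so limits from counts cover counting error only.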

Additional observations from a re-analysis of the deposited data

How the results depend on the processing

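Of the 22 tested genes, 15 kept the sign of their log2 fold change in all 18 alternative fits and 7 changed it in at least 1. Wnt9a kept its direction (-0.61 to -0.43) and passed in 2 fits, so that the count of lower genes among the 22 was 1 with DESeq2 and 1 without the filter on low counts. No other tested gene of the 22 passed in any of these fits. The number expressed was 20 without any 1 library, 22 at a minimum of 0.5 CPM and 19 at 2 CPM. Scaling by the longest transcript put Wnt2b (2.05 CPM per kb) above Wnt4 (1.92) and changed no other order by mean over the 8 libraries. Within controls it also put Wnt11 (18.3 CPM per kb) above Wnt9a (17.4), so that their order no longer turned between groups. Over all genes, against 111 higher and 46 lower, DESeq2 called 268 and 94, and an adjusted p threshold of 0.10 gave 73 lower. Leaving out 1 library gave 50 to 153 higher and 22 to 52 lower. Control 2 left out gave 50 higher and 26 lower, and control 3 left out gave 67 and 23. Leaving out Fra-2 1 gave 54 and 22. The higher count was 50 when Fra-2 3 was dropped and 72 when Fra-2 4 was. Fewer libraries entered these fits.

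The numbers 1 to 4 are shared between groups. The correlations of the deviations of same-numbered libraries (0.00177, 0.219, 0.0797 and 0.310) were all positive but did not all exceed 0.1. By that rule the main fit did not take the numbers as pairs. Differently numbered libraries were not compared, so the rule cannot exclude pairing. With a replicate block 137 genes were higher and 53 lower, 0 of the 22 genes passed, and 4 signs turned: Wnt5b 0.13, Wnt6 0.0326, Fzd3 -0.00157 and Ryk 0.000125. Limma-voom also turned Wnt5b (0.16), Wnt6 (0.0815), Fzd10 (-0.14) and Ryk (0.00192), and Ryk was 0.00301 with RLE scaling and 0.00308 with DESeq2. The log2 fold changes with 1 library left out spanned 0 for 7 genes: -0.31 to 0.39 for Wnt5b, -0.33 to 0.30 for Wnt6, -0.11 to 0.14 for Fzd3, -0.21 to 0.0735 for Fzd6, -0.25 to 1.39 for Fzd10, -0.0699 to 0.094 for Ror2 and -0.0362 to 0.0626 for Ryk. The cause of these changes was not tested. Wnt5b, Wnt6 and Fzd10 had at most 102 reads in any library, which limits the precision of their values.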
